A study of Mus musculus with 56 samples.

Results

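The comparison described here set livers of hypothyroid L-NCOR1ΔID mice against livers of hypothyroid wild-type (WT) mice, 4 animals of each, by RNA-seq. These 8 libraries were chosen by the genotype and treatment in their labels, out of 12 RNA-seq libraries among the 56 samples of the study. All mice were male and were fed a low iodine diet with PTU, a drug that blocks thyroid hormone synthesis, so both genotypes lacked hormone and the design asks what NCOR1 does while its receptor is empty. L-NCOR1ΔID mice (L-NCORdeltaID in the labels) express, in the liver only, an NCOR1 protein without a pair of domains that bind the thyroid hormone receptor. They were kept on a mixed background of C57BL/6 and another laboratory strain. The promoter that restricts the mutation to the liver is not given in the sources used here. The WT RNA libraries carry no label that ties them to that background, although labels of other assays name WT mice matched to L-NCORdeltaID, and the animal table of the study gives the mutants a lower mean age. The other 4 RNA-seq libraries came from WT mice on the same diet that also received triiodothyronine (T3), and they appear only as a level beside some genes.

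NCOR1 is a corepressor. It has no DNA-binding activity of its own, and it joins the histone deacetylase HDAC3 and the TBL1 proteins in the NCoR complex, which nuclear receptors without ligand bring to chromatin. The thyroid hormone receptor, the liver X receptor (LXR), the retinoic acid receptor, and the xenobiotic receptors PXR (Nr1i2) and CAR (Nr1i3) can all dock on its interaction domains. In the classic model, hormone binding exchanges the corepressor for coactivators at target genes. Many hormone targets of the liver belong to lipid and cholesterol metabolism, such as Thrsp, and the deiodinase gene Dio1 is another well known target.

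Ncor1 RNA itself was measured at 15.6, 14.3, 14.6 and 14.1 RPKM in the WT libraries and at 13.4, 12.1, 12.4 and 13.9 RPKM in the L-NCOR1ΔID libraries. RPKM is a read number scaled by transcript length and by the size of the library, so levels can also be set beside each other between genes. The log2 fold change of Ncor1 was -0.18 (SE 0.07, adjusted p = 0.204), and the groups did not overlap, with every mutant library below every WT library. A single value per gene for Ncor1 (mm9, chr11:62129928-62272043, minus strand) cannot show which exons were lost, so it does not check the genotype label.

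The table held no read counts. Steps between its low values put the depth of the mutant libraries at 1.22 to 1.37 times that of WT replicate 1, against 0.933 to 1.22 times for the WT libraries. Log levels of replicates correlated at 0.985 to 0.993 in WT and at 0.964 to 0.987 in the mutants, over 9570 genes. Albumin took 6.97 to 9.04% of the summed RPKM of the WT libraries and 5.22 to 6.59% of that of the mutant libraries. All 8 libraries had the low Xist and the Y-linked transcripts of males. Hmgcs1, an enzyme of cholesterol synthesis in every cell, is listed at 0 in all 8 libraries, so a 0 in the table is given below only as listed at 0.

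Loss of the NCOR1 interaction domains was accompanied by called changes in drug metabolism, lipid synthesis, sterol export and plasma proteins. Other called genes were nearly undetected in the mutants. Of 13790 genes tested, 100 (0.725%) were higher and 75 (0.544%) were lower in L-NCOR1ΔID liver at an adjusted p under 0.01, which is called a rise or a fall below (175 genes or 1.27% in all). With the wider rule of an adjusted p under 0.05, 344 genes (2.49%) were higher and 257 (1.86%) lower (4.36% together). Most gene lists below are short, so at these shares a list without a call says little about its members. The test was limma on log2(RPKM + 0.1), a scale on which fold changes of genes near 0.1 RPKM are understated. Its p-values set the difference of group means against the spread of animals within groups, moderated by a variance trend over all genes. Before adjustment, 2831 of the 13790 genes had a limma p under 0.05, so the calls do not give the full extent of change. Over all genes tested the median log2 fold change was 0.03, 55.8% of genes were above 0, and 90% of the values lay between -0.50 and 0.71. Fits that each left out 1 library called between 36 genes (without mutant replicate 3) and 110 genes (without mutant replicate 4) higher, and between 28 (without WT replicate 2 or 3) and 77 (without mutant replicate 4) lower. All 175 called genes had groups that did not overlap, a pattern that 7.78% of all genes showed with the mutant higher and 5.36% with the mutant lower. The separation and the call come from the same values, so the separation is no further support for the calls. Among the called genes, 74 of the rises and 55 of the falls were at least 2-fold, and 56 of the rises but 32 of the falls reached a mean of 10 RPKM in the higher group. Because these are whole livers, a lower level of a transcript can stand for fewer cells of a type or for less RNA per cell, which cannot be told apart.

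**Figure D1:**
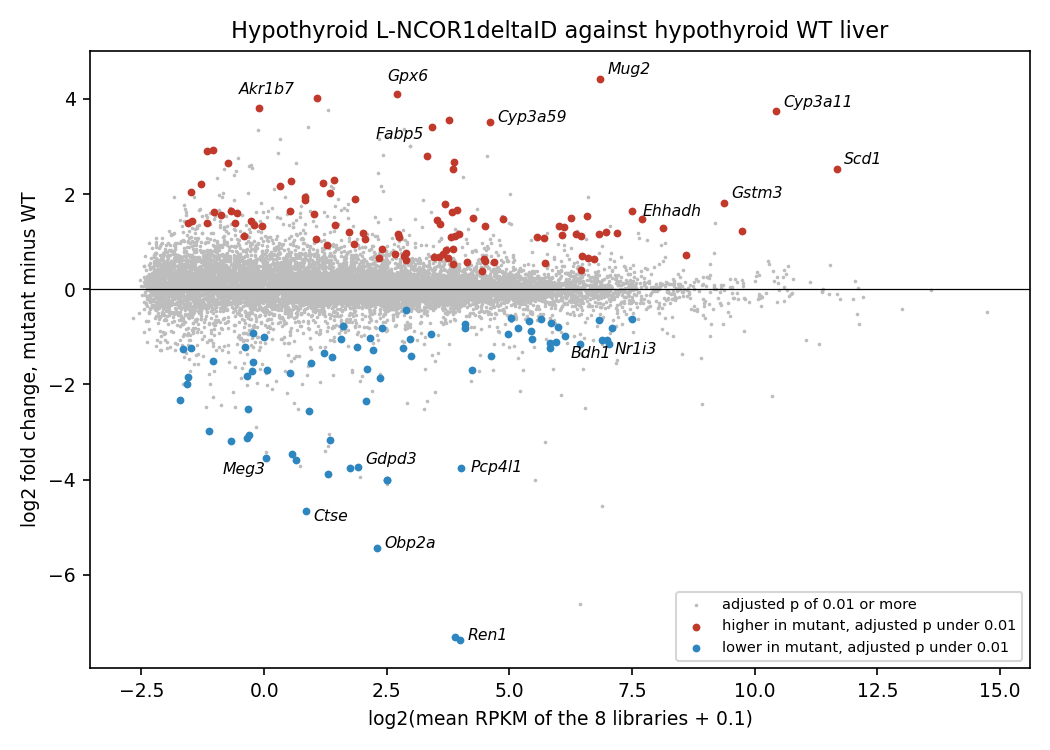
Each point is a gene, with the log2 of its mean RPKM over the 8 libraries plus 0.1 on the horizontal axis and the log2 fold change of L-NCOR1ΔID over WT on the vertical axis. Red points are the 100 genes higher and blue points the 75 genes lower in the mutant at an adjusted p under 0.01, and abundant genes such as Scd1 and Cyp3a11 stand among the rises while the deepest falls, Ren1 and Obp2a, lie at lower levels.

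Large rises were found in the Cyp3a family, the cytochrome P450 enzymes that oxidise drugs, bile acids and steroids, and whose best known regulator is PXR. Cyp3a11, the main family member of mouse liver (mm9, chr5:146666002-146691540, minus strand), was at 224, 301, 183 and 108 RPKM in WT and at 2670, 2490, 2550 and 2480 RPKM in L-NCOR1ΔID. Every mutant library exceeded every WT library by more than the whole range of either group. The log2 fold change was 3.74 (SE 0.27, adjusted p = 0.000265), or 12.5 times between the group means. This took Cyp3a11 from between 0.0261 and 0.0756% of the summed RPKM to between 0.622 and 0.702%.

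In one cluster on chromosome 5, 4 Cyp3a genes rose, and all 7 tested family members had a fold change above 0, with a median of 1.39. Cyp3a59 was at 3.63, 5.76, 4.33 and 2.13 RPKM in WT and at 33.1, 40.2, 49.0 and 54.4 RPKM in the mutants (log2 fold change 3.50, SE 0.28, adjusted p = 0.000391). Cyp3a25 was at 174, 183, 153 and 145 RPKM in WT and at 375, 346, 412 and 466 RPKM in the mutants (log2 fold change 1.28, SE 0.12, adjusted p = 0.00067). For both genes the lowest mutant library lay well above the highest WT library. Cyp3a16 rose too (log2 fold change 1.62, adjusted p = 0.00374), but only from 0.074 to 0.228 RPKM to between 0.626 and 0.656 RPKM. Cyp3a13, which lies elsewhere in the genome, was at 15.4 to 17.1 RPKM in WT and at 55.7, 78.8, 36.8 and 19.5 RPKM in the mutants. Its groups did not overlap, but the mutants were widely spread, and its adjusted p was 0.0637. Cyp3a genes are close relatives, and reads from one can be placed on another, so the split of the rise among Cyp3a11, Cyp3a25, Cyp3a59 and Cyp3a16 is uncertain. This holds most for Cyp3a16, whose level was far below that of Cyp3a11. The call of Cyp3a16 was kept in 3 of the 8 fits without 1 library.

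The stretches of promoter below are shown because they hold a pair of nuclear receptor half-sites facing each other, in the members of the family where one was found. The capitals mark the half-site AGGTCA and, further along, the same letters or the variant AGTTCA on the opposite strand, which appear reversed and complemented in print. The sequences are from RefSeq on GRCm38.p6, a different build from the mm9 of the expression values, and each is printed along the strand of its gene.
Cyp3a11: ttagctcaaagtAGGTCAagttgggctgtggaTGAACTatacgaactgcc
Cyp3a25: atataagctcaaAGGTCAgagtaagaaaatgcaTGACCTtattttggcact
Cyp3a59: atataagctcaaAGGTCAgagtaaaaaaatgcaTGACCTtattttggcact
Cyp3a57: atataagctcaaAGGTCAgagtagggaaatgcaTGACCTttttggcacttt
They lie at chr5:145879979-145880028 (minus strand) for Cyp3a11, chr5:146009756-146009806 (minus strand) for Cyp3a25, chr5:146079069-146079119 (plus strand) for Cyp3a59 and chr5:145345083-145345133 (plus strand) for Cyp3a57, between 125 and 189 bases before the start of the gene. The stretches of Cyp3a25, Cyp3a59 and Cyp3a57 are near copies of each other.

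Such a pair, with at most 25 bases between its parts, was searched for in the 250 bases before the start. It stood in 4 of 9 Cyp3a promoters, read along the gene strand with each gene entered once. Among all mouse promoters it stood in 56 of 32851 (0.17%), counted on either strand, so the search rules differed. Single half-sites are common, with AGGTCA on either strand in 14% and AGTTCA on either strand in 11.8% of all promoters. The search for pairs was chosen after these sequences had been seen. A match is a description of the letters and not of binding, and a match and a rise did not always go together. Cyp3a57, which has the pair, was at 0 to 0.121 RPKM in WT and at 0.155 to 0.166 RPKM in the mutants (adjusted p = 0.183). Cyp3a16, whose rise may hold reads of its relatives, had no such pair in this window.

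Other genes of drug disposal rose beside Cyp3a11. Gstm3, a glutathione transferase, was at 269, 262, 313 and 327 RPKM in WT and at 963, 1200, 873 and 1090 RPKM in the mutants (log2 fold change 1.81, SE 0.13, adjusted p = 0.000265). Ces2a, a carboxylesterase that cleaves ester drugs and lipids, was at 109, 135, 104 and 92.2 RPKM in WT and at 281, 275, 355 and 307 RPKM in the mutants (log2 fold change 1.47, SE 0.13, adjusted p = 0.000586). Papss2, which makes the sulfate donor for sulfotransferases, was at 36.7, 36.4, 49.0 and 37.7 RPKM in WT and at 94.3, 112, 92.6 and 93.4 RPKM in the mutants (log2 fold change 1.30, SE 0.11, adjusted p = 0.000498). In each of these genes the groups stood apart by more than the range of the WT libraries. Gstt3 (1.5), Gstm2 (1.16), the sulfotransferase Sult1d1 (0.67) and the organic anion transporter Slco1a4 (1.48) also rose, with log2 fold changes as given and adjusted p between 0.00164 and 0.00796. Cyp2c55, another P450 enzyme, rose from 4.70, 0.941, 0.691 and 2.35 RPKM to 27.1, 14.6, 16 and 18.6 RPKM (log2 fold change 3.40, SE 0.51, adjusted p = 0.00837). Of the 8 fits that each left out 1 library, only 1 kept the call of Cyp2c55, 1 that of Sult1d1, 3 that of Gstm2 and 4 that of Slco1a4.

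Most members of each of these families were not called, set against 0.725% of all genes tested that rose and 0.544% that fell. Of 23 glutathione transferases tested, 3 rose and none fell, with a median of 0.24, and the abundant Gstm1 was at 2180 to 2980 RPKM in WT and at 3300 to 3760 RPKM in the mutants (adjusted p = 0.104). Of 11 sulfotransferases and PAPS synthases 2 rose (median 0.22), and of 16 carboxylesterases 1 rose (median -0.38). Among 13 Cyp2c enzymes only Cyp2c55 was called (median 0.01), and the abundant Cyp2c29 ran from 1440 to 1650 RPKM in WT and from 1110 to 1920 RPKM in the mutants (adjusted p = 0.928). Of 24 other Cyp2 enzymes 1 fell, Cyp2a22, from between 0.971 and 1.48 RPKM to between 0.022 and 0.244 RPKM, and of 14 Cyp4 enzymes 1 fell, Cyp4v3 (log2 fold change -0.81, adjusted p = 0.00516). None of 18 UDP-glucuronosyltransferases and none of 13 SLC22 transporters passed either rule.

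Most targets of CAR and PXR were not called, while 0.725% of all genes tested rose and 0.544% fell. Of 17 tested, Cyp3a11 and Cyp2c55 rose and none fell, with 2 more lower at the wider rule and a median of 0.04. Cyp2b10, the usual readout of CAR, was at 12.9, 9.96, 17 and 16.1 RPKM in WT and at 50.3, 27.7, 19.6 and 18.9 RPKM in the mutants (log2 fold change 0.96, SE 0.31, adjusted p = 0.117). Nr1i2, which encodes PXR, was at 33.9 to 38.4 RPKM in WT and at 32.8 to 49.0 RPKM in the mutants, and the groups overlapped (adjusted p = 0.336). Nr1i3, which encodes CAR, fell from 201, 151, 151 and 188 RPKM to 87.8, 84.1, 73.5 and 81.3 RPKM (log2 fold change -1.07, SE 0.11, adjusted p = 0.00145). Tomm40l, chosen after its values were seen, overlaps Nr1i3 on the opposite strand (chr1:173147933-173152645 against chr1:173144101-173150832, mm9) and fell alongside it, by 1.14 on the log2 scale. Whether reads were counted by strand is not given in the sources used here, so reads of these 2 genes cannot be told apart.

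**Figure D2:**
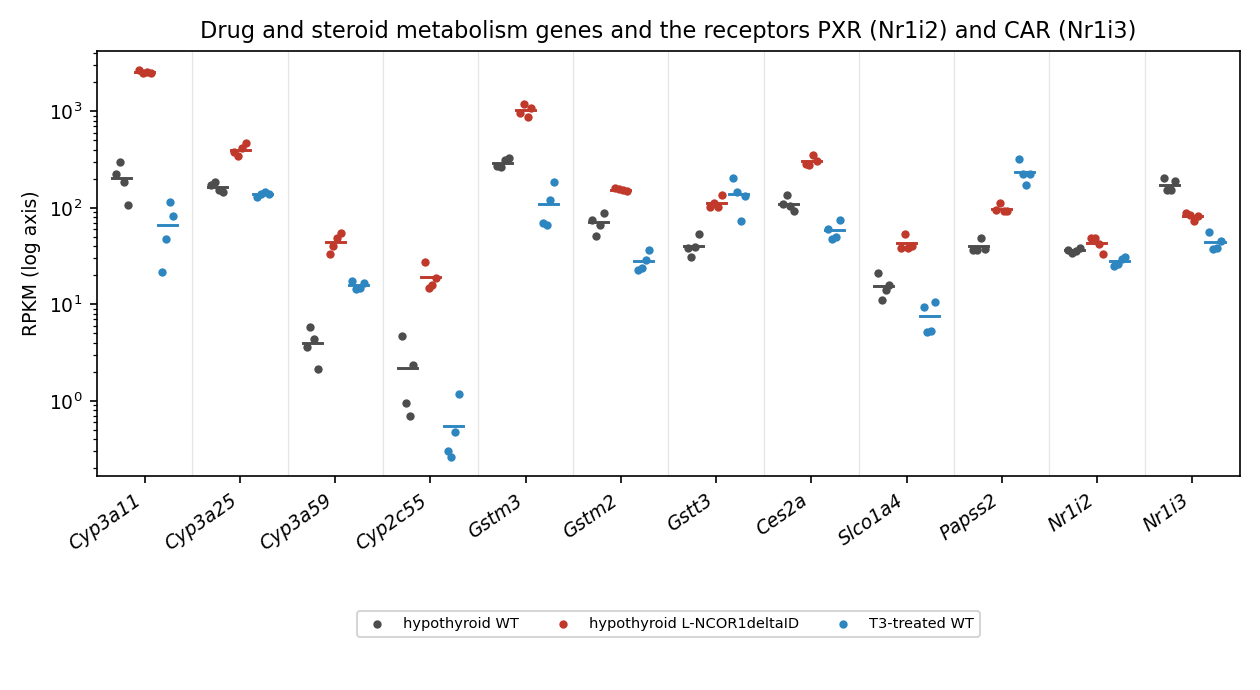
RPKM on a log axis of 10 genes of drug and steroid metabolism and of the receptors PXR (Nr1i2) and CAR (Nr1i3), with 1 point per library and a bar at the mean of each group of 4. Mutant points lie above all WT points for the 10 metabolic genes and below them for Nr1i3, while the Nr1i2 points overlap.

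Among lipid genes, a large rise was found in Scd1, the stearoyl-CoA desaturase that makes monounsaturated fatty acids (mm9, chr19:44468941-44482199, minus strand). It was at 977, 1050, 828 and 881 RPKM in WT and at 8000, 3740, 6010 and 4670 RPKM in the mutants. The lowest mutant library held more than 3 times the level of the highest WT library, and Scd1 went from between 0.211 and 0.263% to between 0.935 and 2.1% of the summed RPKM. The log2 fold change was 2.53 (SE 0.23, adjusted p = 0.000693). Acacb, the acetyl-CoA carboxylase whose product restrains fatty acid import into mitochondria, rose from 6.78, 11.1, 10.7 and 10.8 RPKM to 35.5, 18.4, 28.1 and 30.6 RPKM (log2 fold change 1.49, SE 0.22, adjusted p = 0.00791). The call of Acacb was kept in 1 of the 8 fits without 1 library, and that of Scd1 in all 8.

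The rest of fatty acid synthesis was less clear. Fasn, the fatty acid synthase, was at 49.8, 112, 64.8 and 69.0 RPKM in WT and at 244, 95.1, 218 and 200 RPKM in the mutants (log2 fold change 1.33, SE 0.32, adjusted p = 0.0546). Mutant replicate 2 fell inside the WT range, and the same library was the lowest mutant for Scd1 and Acacb. The main cytosolic carboxylase Acaca gave a log2 fold change of 0.98 (adjusted p = 0.0527), Acly, which supplies acetyl-CoA, 0.31 (adjusted p = 0.418), and Srebf1, the transcription factor of the pathway, 0.54 (adjusted p = 0.36). Of 22 tested genes of fatty acid and triglyceride synthesis 21 were above 0 with a median of 0.53, and only Scd1 and Acacb rose by the main rule. Over all genes tested 55.8% were above 0 and 0.725% rose. Agpat2, Acss2 and Pnpla3, named because they joined them at the wider rule, had log2 fold changes of 0.48, 0.90 and 3.77. Pnpla3 was at 0.103 to 0.147 RPKM in WT and at 2.26, 0.536, 10 and 5.66 RPKM in the mutants.

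Abcg5 and Abcg8, which encode the pair of proteins of a transporter that moves cholesterol into bile, both rose. Both are LXR targets. Abcg5 was at 42.4, 47.5, 44.3 and 34.6 RPKM in WT and at 94.3, 87.4, 103 and 84.2 RPKM in the mutants (log2 fold change 1.13, SE 0.11, adjusted p = 0.00095). Abcg8 was at 29.4, 35.9, 39.0 and 28.6 RPKM in WT and at 56.7, 66.5, 82.8 and 76.0 RPKM in the mutants (log2 fold change 1.08, SE 0.14, adjusted p = 0.00422). The groups were separate for both genes, and the mutant means were 2.18 and 2.12 times the WT means. The call of Abcg5 was kept in all 8 fits without 1 library and that of Abcg8 in 3. The genes lie head to head, and their RefSeq starts on GRCm38.p6 are 110 bases apart. The whole stretch between the starts is shown because it is the promoter that this pair of rising genes shares (chr17:84683012-84683120, plus strand).
Abcg5 and Abcg8: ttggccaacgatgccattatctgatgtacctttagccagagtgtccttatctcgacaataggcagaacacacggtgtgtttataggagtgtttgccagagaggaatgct
In the mm9 annotation the spans of the genes overlap on opposite strands, so part of their reads cannot be told apart.

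Of 12 LXR targets tested, Scd1, Abcg5 and Abcg8 rose and none fell, and the median was 0.78. Over all genes tested 0.725% rose and 0.544% fell, with a median of 0.03. Part of the reads of Abcg5 and Abcg8 cannot be told apart, so their rises are not fully separate. The cholesterol efflux pumps of the same list were not called. Abca1 was at 19.8 to 25.2 RPKM in WT and at 19.6 to 32.5 RPKM in the mutants (adjusted p = 0.504), and Abcg1, named after its values were seen, gave a log2 fold change of 0.83 (adjusted p = 0.0811). Nr1h3, which encodes LXRα, gave a log2 fold change of -0.22 (adjusted p = 0.167). In cholesterol synthesis and uptake no gene of 27 was called, with a median of 0.32. At the wider rule 6 were higher and none lower, against 2.49% and 1.86% of all genes tested. None of 20 apolipoprotein and lipoprotein genes passed either rule.

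Of 22 bile acid genes only Slco1a4 rose and none fell, with a median of -0.06, where 0.725% of all genes tested rose and 0.544% fell. Cyp7a1, the first enzyme of the classic pathway, was at 39.5, 28.3, 28.8 and 16.3 RPKM in WT and at 7.30, 18.0, 6.55 and 2.70 RPKM in the mutants. One mutant library lay inside the WT range, and the log2 fold change of -1.94 (SE 0.50) did not pass (adjusted p = 0.0659). Cyp8b1, which sets the cholic acid share, gave -1.14 and was lower at the wider rule (adjusted p = 0.0423). Cyp27a1, which starts the alternative pathway, and Slc27a5, which activates bile acids, both named after their values were seen, gave 0.51 and 0.33 (adjusted p = 0.0947 and 0.101). Nr1h4, which encodes the bile acid receptor FXR, fell from 62.4, 61.1, 60.7 and 58.3 RPKM to 41.0, 37.2, 39.3 and 39.8 RPKM (log2 fold change -0.62, SE 0.06, adjusted p = 0.000876). Its replicates were among the tightest of the genes described.

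Classic thyroid hormone targets were not called in either direction. Of 11 tested, none passed either rule, 9 were above 0, and the median was 0.22. Among all genes tested 1.27% were called and 55.8% were above 0, so an absence of calls among 11 genes says little. Thrsp, which promotes lipid synthesis, was at 209, 490, 352 and 237 RPKM in hypothyroid WT, at 1060, 454, 1080 and 779 RPKM in L-NCOR1ΔID and at a mean of 1597 RPKM in the T3-treated WT libraries. Mutant replicate 2 again lay inside the WT range, and the adjusted p was 0.0542 (log2 fold change 1.39, SE 0.34). Dio1, the deiodinase that activates thyroid hormone, was at 0.719, 6.64, 57.7 and 8.98 RPKM in WT and at 0.567, 0.591, 20.9 and 12.1 RPKM in the mutants, against a mean of 544.2 RPKM with T3. The hypothyroid groups overlapped over a wide range in both genotypes (adjusted p = 0.706). Pdp2, a phosphatase that activates pyruvate dehydrogenase, was at 2.13 to 7.27 RPKM in WT and at 5.67 to 7.36 RPKM in the mutants (adjusted p = 0.197), against 27.8 RPKM with T3. Me1, the malic enzyme, was at 15 to 34.1 RPKM in WT and at 16.8 to 49.8 RPKM in the mutants (adjusted p = 0.4), against 133.9 RPKM with T3. Proca1 was at 0.761 to 1.08 RPKM in WT and at 0.347 to 1.12 RPKM in the mutants (adjusted p = 0.291), and Ginm1 at 15.1 to 23.6 and at 14.8 to 23.9 RPKM (adjusted p = 0.998).

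The 3 groups can be set side by side for the genes called above, with the WT hypothyroid libraries shared by both contrasts. Mean Abcg5 was 42.2 ± 5.5 RPKM in hypothyroid WT, 92.2 ± 8.31 RPKM in L-NCOR1ΔID (SD, n = 4 each) and 110.1 RPKM with T3, and Papss2 reached 235.3 RPKM with T3. For Scd1 and Cyp3a11 the T3-treated WT means were 433.6 and 66.9 RPKM, on the other side of the hypothyroid WT levels from the mutants. Cyp3a59, of the same cluster as Cyp3a11, did not share this order. Its mean was 3.96 RPKM in hypothyroid WT, 15.84 RPKM with T3 and 44.16 RPKM in the mutants.

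**Figure D3:**
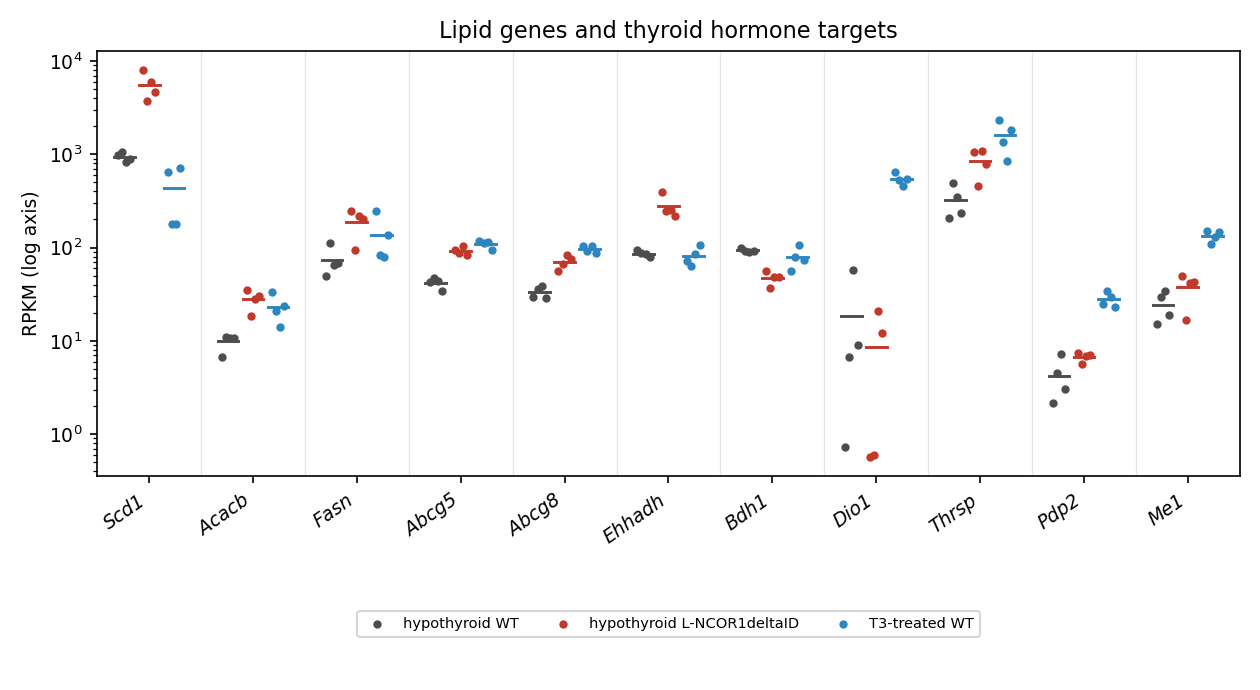
RPKM on a log axis of 7 lipid genes and 4 thyroid hormone targets in hypothyroid WT, hypothyroid L-NCOR1ΔID and T3-treated WT liver, with 1 point per library and a bar at each mean. Scd1, Acacb, Abcg5, Abcg8 and Ehhadh sit higher in the mutant than in hypothyroid WT, Bdh1 sits lower, and the mutant points of Dio1, Thrsp, Pdp2 and Me1 overlap those of hypothyroid WT.

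Most fatty acid oxidation genes lay slightly below 0. Ehhadh, the bifunctional enzyme of peroxisomal oxidation, rose from 93.4, 87.5, 85.5 and 78.8 RPKM to 395, 246, 250 and 216 RPKM (log2 fold change 1.64, SE 0.17, adjusted p = 0.00145). Bdh1, which makes the ketone body β-hydroxybutyrate, fell from 99.2, 91.1, 90.4 and 92.7 RPKM to 56.1, 37.2, 48.6 and 48.0 RPKM (log2 fold change -0.99, SE 0.12, adjusted p = 0.00259). Of 33 genes of fatty acid oxidation and PPARα targets 26 were below 0, with a median of -0.22, and at the wider rule 2 were higher and 5 lower. Over all genes tested 55.8% were above 0, and at that rule 2.49% were higher and 1.86% lower. Pdk4, a kinase that restrains pyruvate dehydrogenase, was higher beside Ehhadh, at 1.29, 0.513, 0.527 and 0.795 RPKM in WT and at 2.98, 2.31, 1.57 and 2.41 RPKM in the mutants (log2 fold change 1.51, SE 0.29, adjusted p = 0.0219). Among the 5 lower genes was Fgf21, a fasting hormone named here after its values were seen, at 1.83, 2.83, 20.6 and 4.07 RPKM in WT and at 0.364, 0.194, 0.173 and 0.136 RPKM in the mutants (log2 fold change -3.94, SE 0.64, adjusted p = 0.0116). Cpt1a, which admits fatty acids to mitochondria, overlapped between the groups (log2 fold change -0.44, adjusted p = 0.328). Of 11 acyl-CoA thioesterases none passed either rule.

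No gene of the repression or activation machinery was called. Since only 1.27% of all genes were called, this says little about lists of this size. Of 15 subunits of the NCoR complex and other corepressors, fold changes ran from -0.18 to 0.55 on the log2 scale, and only Hdac5, named for that reason, was higher at the wider rule. Hdac3 was at 17.5 to 18.6 RPKM in WT and at 16 to 17.2 RPKM in the mutants (adjusted p = 0.377). Of 11 coactivators and acetyltransferases none passed either rule, and Crebbp, Med1 and Ncoa1 gave log2 fold changes of -0.20, 0.08 and -0.07. Of 26 nuclear receptors, Nr1h4 and Nr1i3 fell and no other was called, with a median of 0.06. Rxra, the shared partner of these receptors, gave -0.10 (adjusted p = 0.513). Thrb, the main thyroid hormone receptor of liver, was at 6.56 to 8.59 RPKM in WT and at 6.21 to 10.2 RPKM in the mutants (adjusted p = 0.909), and Thra at 2.82 to 4.01 and at 3.20 to 3.73 RPKM (adjusted p = 0.941). Esr1 was at 1.25 to 2.17 RPKM in WT and at 2.61 to 5.71 RPKM in the mutants without being called (adjusted p = 0.0902).

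Of 24 genes of amino acid breakdown and methyl groups 3 rose and none fell, with a median of 0.14, where 0.725% of all genes tested rose and 0.544% fell. Shmt1, which moves one-carbon units from serine to folate, was at 48.0, 56.9, 62.9 and 54.8 RPKM in WT and at 120, 121, 122 and 120 RPKM in the mutants (log2 fold change 1.12, SE 0.08, adjusted p = 0.000347). The 4 mutant libraries were almost equal for Shmt1. Cth, which makes cysteine from cystathionine, rose from 97.3, 80.7, 82.1 and 94.4 RPKM to 257, 194, 156 and 202 RPKM (log2 fold change 1.17, SE 0.14, adjusted p = 0.00324). Gldc, the glycine decarboxylase, rose from 25.9, 31.9, 32.1 and 29.4 RPKM to 49.1, 67.0, 61.0 and 82.3 RPKM (log2 fold change 1.10, SE 0.15, adjusted p = 0.00477). Of the 8 fits without 1 library, 2 kept the call of Gldc, 5 that of Cth and all 8 that of Shmt1. Other enzymes of glycine, serine and sulfur amino acid metabolism in the list were not called, and 3 named after their values were seen had log2 fold changes of 0.235 for Shmt2, -0.035 for Cbs and -0.24 for Bhmt.

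In a number of other lists 1 to 3 genes were called, where 0.725% of all genes tested rose and 0.544% fell. Akr1b7, an aldo-keto reductase that clears lipid aldehydes, rose from 0.129, 0.078, 0.138 and 0.169 RPKM to 3.33, 7.13, 2.79 and 2.35 RPKM (log2 fold change 4.01, SE 0.32, adjusted p = 0.000391), and was the only 1 of 27 steroid and aldo-keto genes to do so (median -0.25). Gpx6, a glutathione peroxidase, rose from 0.533, 0.256, 0.545 and 0.706 RPKM to 21.4, 17.2, 7.05 and 3.67 RPKM (log2 fold change 4.10, SE 0.52, adjusted p = 0.00379). Gpx6 was joined by G6pdx (1.35), which feeds NADPH production, and Hmox2 (0.57), making 3 of 25 antioxidant genes (median 0.02). Each of these 3 calls was kept in 2 of the 8 fits without 1 library. Dhrs9, which oxidises retinol, rose from between 0.034 and 0.049 RPKM to between 0.427 and 0.819 RPKM (adjusted p = 0.00109), the only rise among 20 retinoid genes (median 0.15). Dhrs9 entered the test only through its mutant values. Arntl, the clock activator BMAL1, rose from 1.08, 0.606, 0.487 and 0.512 RPKM to 2.97, 2.72, 1.68 and 3.41 RPKM (log2 fold change 1.87, SE 0.27, adjusted p = 0.00727), and no other of 18 clock genes was called (median 0.10). Gadd45g (1.63) was the only 1 of 14 immediate early genes called, and 13 of the 14 were above 0 with a median of 0.48. Fabp5, a fatty acid carrier, rose from 1.69, 2.41, 1.41 and 1.96 RPKM to 21.7, 9.76, 38.0 and 31.9 RPKM (log2 fold change 3.55, SE 0.38, adjusted p = 0.00165). Glt1d1 (2.53) and Gm4956 (2.81) completed the largest rises, together with Lncbate1, which was listed at 0 in all 4 WT libraries and at 1.89, 3.43, 0.916 and 0.432 RPKM in the mutants. Lncbate1, too, entered the test only through its mutant values.

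Gapdh and Rpl30 met the call but are uncertain. Gapdh was at 2.12, 4.70, 4.62 and 4.24 RPKM in WT and at 36.3, 24.6, 20.9 and 19.0 RPKM in the mutants (log2 fold change 2.67, SE 0.28, adjusted p = 0.00145), and no other of 23 glucose and glycogen genes was called. Its level was low for an abundant glycolytic enzyme. Both Gapdh and Rpl30 have many near-identical copies in the mouse genome, and reads with several placements can be lost or split between them. Rpl30 (log2 fold change 1.12) was the only 1 of 81 cytosolic ribosomal protein genes called (median 0.16).

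Since only 1.27% of all genes were called, an absence of calls says little about a short list. Several lists had no gene past the main rule. They were 77 oxidative phosphorylation subunits (median 0.06, range -0.42 to 0.43), 38 proteasome subunits (0.01), 15 insulin signalling genes (0.04), 11 urea cycle genes (0.09), 14 iron genes (0.22), 19 genes of endoplasmic reticulum stress (-0.18), 22 cell cycle genes (0.37), 15 zonation genes (0.16) and 28 coagulation and complement genes (-0.17). Of 15 hepatocyte transcription factors only Cebpb, an inducer of acute phase genes, was called, and it rose from 13.2, 10.3, 15.3 and 12.3 RPKM to 24.4, 37.1, 34.3 and 33.0 RPKM (log2 fold change 1.32, SE 0.15, adjusted p = 0.00259).

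Plasma protein genes changed in both directions. Mug2, a murinoglobulin that inhibits proteases (mm9, chr6:121956816-122035985, plus strand), was at 6.82, 12.2, 11.7 and 10.6 RPKM in WT and at 168, 256, 235 and 224 RPKM in the mutants (log2 fold change 4.42, SE 0.20, adjusted p = 2.03e-05). The mutant mean was 21.4 times the WT mean, with no library of one group near the other. The abundant relative Mug1 was at 608 to 672 RPKM in WT and at 366 to 639 RPKM in the mutants (adjusted p = 0.203), and close relatives can share reads. Serpina1d, an α1-antitrypsin gene, rose (log2 fold change 1.21, adjusted p = 0.00884), though the call was lost in each of the 8 fits without 1 library. Its neighbours Serpina3b, Serpina3f and Serpina3h fell by 3.12, 2.56 and 1.82 on the log2 scale. Serpina3f was at 2.82, 3.07, 3.53 and 2.99 RPKM in WT and at 0.400, 0.368, 0.762 and 0.326 RPKM in the mutants (adjusted p = 0.000498). Of 23 Serpina genes 20 were below 0 with a median of -0.83, and at the wider rule 8 were lower and 1 higher. Over all genes tested 55.8% were above 0, and at that rule 1.86% were lower and 2.49% higher. The abundant Serpina3k gave -0.21 (adjusted p = 0.698).

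The major urinary proteins, pheromone carriers that male liver secretes, were below 0 in all 20 members tested, with a median of -1.29, yet none passed either rule. Their smallest adjusted p was 0.141. Mup20 was at 6420, 6480, 4010 and 4710 RPKM in WT and at 2900, 1600, 4530 and 5040 RPKM in the mutants, where replicates 3 and 4 lay within the WT range. Mup genes are near-identical copies, so the 20 values share reads. The same 2 mutant libraries held Mup3 and the male-biased transporter Slco1a1 at WT levels, while mutant replicate 2 held both at the lowest level, at 250 and 3.71 RPKM. Of 16 male-biased genes 14 were below 0 (median -0.79) but only Susd4 was called lower (log2 fold change -1.05, adjusted p = 0.00924). Over all genes tested 55.8% were above 0, while 0.725% rose and 0.544% fell. Of 20 female-biased genes only Cyp3a16 rose (median 0.32), a rise that may hold reads of its relatives. Igfals, the carrier subunit of circulating IGF1, fell (log2 fold change -0.67, adjusted p = 0.00973), the only call of 14 genes of the growth hormone axis, and Ghr was lower at the wider rule (-0.49, adjusted p = 0.0379). The calls of Susd4 and Igfals were each lost in all 8 fits without 1 library. Igf1 was at 75.4 to 94.8 RPKM in WT and at 55.6 to 87.2 RPKM in the mutants (adjusted p = 0.438).

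Interferon genes were higher in part. In the acute phase list the only calls were a rise of the regulator Cebpb and a fall of Saa4. Bst2, an interferon-induced tethering protein (mm9, chr8:74058163-74061336, minus strand), rose from 70.7, 80.8, 77.6 and 72.1 RPKM to 172, 158, 208 and 162 RPKM (log2 fold change 1.21, SE 0.10, adjusted p = 0.000422). Oas1a, which senses double-stranded RNA, rose from between 0.136 and 0.307 RPKM to between 0.684 and 1.14 RPKM (log2 fold change 1.64, adjusted p = 0.00469). Of 21 interferon-stimulated genes 19 were above 0 with a median of 0.74, and at the wider rule 7 were higher and none lower. Over all genes tested 55.8% were above 0, and at that rule 2.49% were higher and 1.86% lower. Isg15 and Ifit1, core members of the response, gave 0.81 and 0.71 (adjusted p = 0.108 and 0.112). Among the 26 genes of that list, Saa4 had a log2 fold change of -1.06 (adjusted p = 0.0069), and at the wider rule 4 were higher and 2 lower. The wider rule added Saa1, Saa2 and Lbp to the higher genes and Serpina3n (log2 fold change -0.63, adjusted p = 0.026) to the lower genes, the last 2 named for that reason. Saa1 was at 9.16 to 14.5 RPKM in WT and at 56.7, 103, 34.7 and 18.5 RPKM in the mutants, with mutant replicate 2 again the most distant.

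Markers of other liver cells are given beside these groups. The summed RPKM of 7 Kupffer cell and macrophage markers was 43.6 to 62.3 in WT and 48.3 to 132 in the mutants, and 7 of 7 markers were above 0 without being called. Clec4f, the marker restricted to Kupffer cells, was at 11.7 to 16.6 RPKM in WT and at 13.9 to 16.7 RPKM in the mutants, while Marco reached 29.1 RPKM in mutant replicate 2 against 0.647 to 4.62 RPKM in the other mutants. Mpeg1, a macrophage gene seen after the values, rose from between 5.24 and 9.97 RPKM to between 19.5 and 28 RPKM (log2 fold change 1.67, adjusted p = 0.00343). Their part in the interferon and acute phase results was not tested. The 10 stellate cell and fibroblast markers summed to 49.3 to 71.0 RPKM in WT and 66.7 to 118 RPKM in the mutants, and 8 endothelial markers to 57.0 to 83.5 and 68.8 to 93.9 RPKM. At the wider rule Pdgfrb and Lyve1 were higher and Cd3e lower. Erythroid markers summed to 159 to 243 and 135 to 249 RPKM, and of them Alas2, the erythroid enzyme of haem synthesis, fell (log2 fold change -1.10, adjusted p = 0.00422). Neutrophil markers stayed at or under 2.14 RPKM in sum, T, B and NK cell markers at or under 4.01, adipocyte markers at or under 4.0 and cholangiocyte markers at or under 19.4. Pancreatic acinar markers summed to 8.68 to 14.2 RPKM in WT and 3.92 to 8.43 RPKM in the mutants, with Amy2a5 listed at 0 in all 8. The 6 hepatocyte markers summed to 43800 to 56600 RPKM in WT and 37200 to 43300 RPKM in the mutants.

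**Figure D4:**
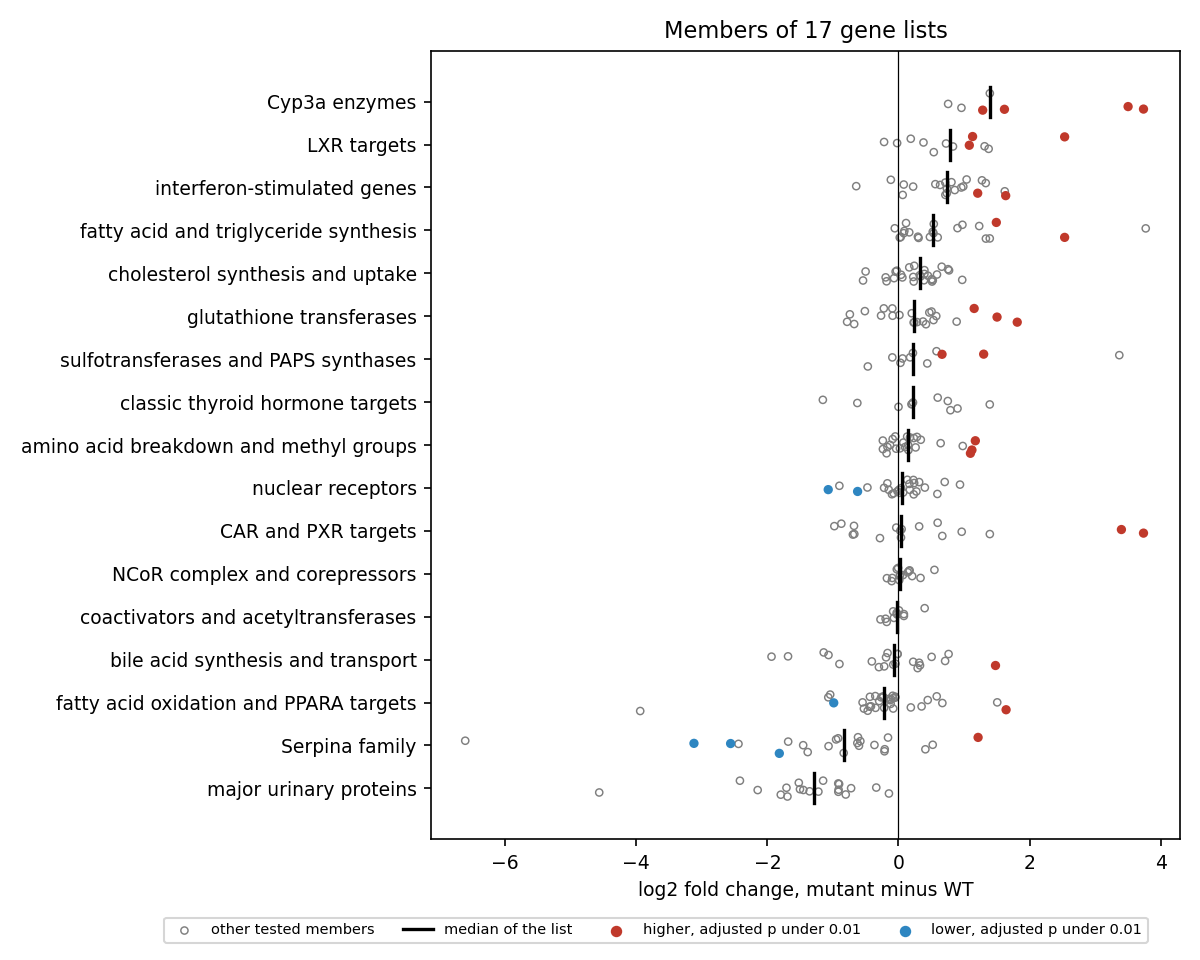
Each row is a gene list and each circle a tested member, placed by its log2 fold change of L-NCOR1ΔID over WT on the horizontal axis. The black bars mark the list medians, which run from -1.29 for the major urinary proteins to 1.39 for the Cyp3a enzymes, and filled circles are members with an adjusted p under 0.01, red for higher and blue for lower.

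The deepest falls were genes that WT liver expressed at modest levels and that L-NCOR1ΔID liver all but lacked. Ren1, which encodes renin (mm9, chr1:135247087-135256902, plus strand), was at 49.7, 15.6, 17 and 43.6 RPKM in WT and at 0.035, 0.130, 0.033 and 0.091 RPKM in the mutants (log2 fold change -7.37, SE 0.40, adjusted p = 4.01e-05). Even the lowest WT library was more than 100 times the highest mutant library. Ren2, a further renin copy that only some mouse strains carry, followed Ren1 at a ratio of 0.889 to 0.984 in the 8 WT libraries. These were the hypothyroid and the T3-treated ones, and the mutant libraries were not part of that range. Reads of the renin copies cannot be told apart. T3-treated WT liver held Ren1 at a mean of 0.886 RPKM. Obp2a, an odorant-binding lipocalin, was at 1.72, 17.8, 14.4 and 4.55 RPKM in WT and at 0.033 to 0.146 RPKM in the mutants (log2 fold change -5.45, SE 0.66, adjusted p = 0.003). Ctse, the protease cathepsin E, was at 3.54, 3.21, 3.49 and 3.28 RPKM in WT and at 0.011 to 0.128 RPKM in the mutants (log2 fold change -4.67, SE 0.24, adjusted p = 3.57e-05). Gdpd3, a lysophospholipase D, fell from 6.03, 5.87, 7.83 and 5.08 RPKM to 0.394, 0.421, 0.309 and 0.316 RPKM (log2 fold change -3.77, SE 0.16, adjusted p = 2.03e-05). WT replicates of Ctse and Gdpd3 were tight, whereas those of Ren1 and Obp2a spread over 3 times or more.

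Ankrd55 (-3.89), Pcp4l1 (-3.75), 2610507I01Rik (-3.74) and A330049N07Rik (-3.54) were also among the largest falls. These genes differed in their level after T3. Pcp4l1 was at 18.9 to 40.9 RPKM in hypothyroid WT, at 1.29 to 3.93 RPKM in L-NCOR1ΔID and at a mean of 2.71 RPKM in T3-treated WT, and Ankrd55 was at 3.61 to 5.79, at 0.094 to 0.403 and at a mean of 0.133 RPKM. Ctse, Gdpd3 and 2610507I01Rik kept means of 2.97, 4.55 and 5.37 RPKM in T3-treated WT.

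Maternally expressed noncoding RNAs of 1 imprinted locus on chromosome 12 fell together. Meg3 (mm9, chr12:110779211-110809936, plus strand) was at 4.08, 1.74, 2.04 and 3.33 RPKM in WT and at 0.096, 0.194, 0.118 and 0.117 RPKM in the mutants (log2 fold change -3.58, SE 0.27, adjusted p = 0.000367). Rian, the next transcript along (chr12:110842155-110899919, plus strand) and named after its values were seen, was at 3.38, 1.76, 2.42 and 2.86 RPKM in WT and at 0.193, 0.176, 0.066 and 0.144 RPKM in the mutants (log2 fold change -3.46, SE 0.25, adjusted p = 0.000265). T3-treated WT liver held both at low means as well, of 0.049 and 0.072 RPKM. Mir1906-1 and Mir1906-2 had identical values in every library and fell by 4.0 on the log2 scale. Mir1906-1 lies inside the span of Meg3, and in poly(A) RNA these values are reads over the locus, not levels of the mature miRNA.

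**Figure D5:**
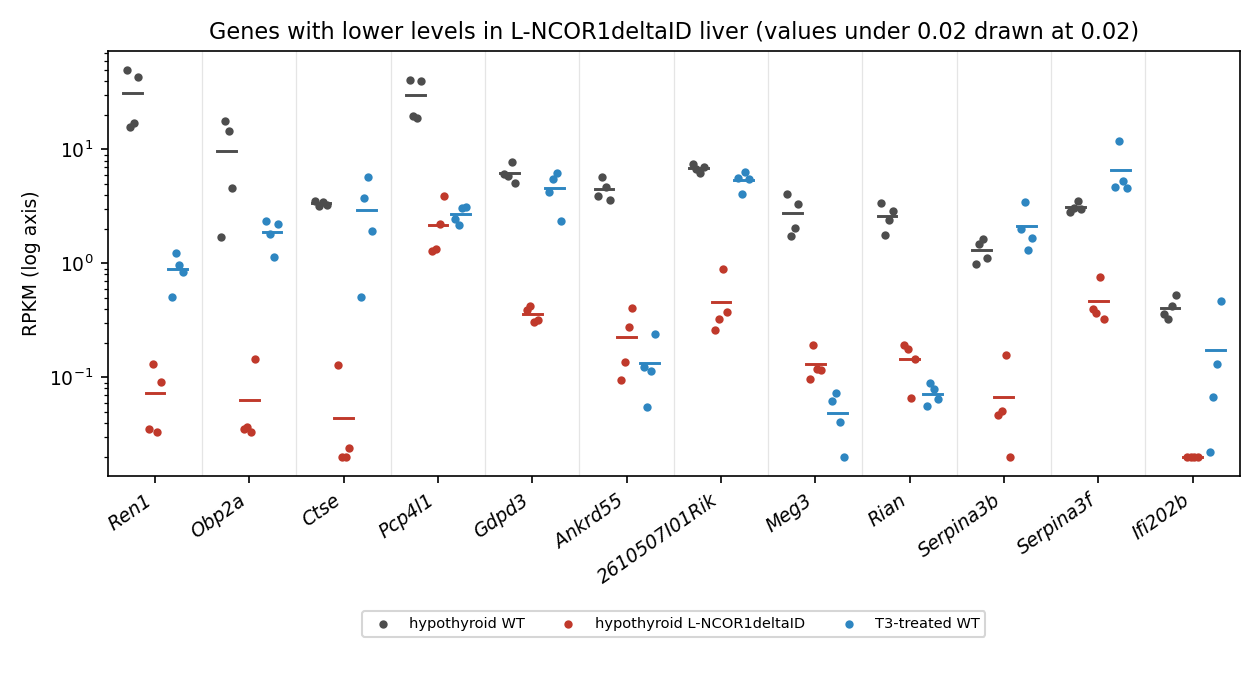
RPKM on a log axis of 12 genes with lower levels in L-NCOR1ΔID liver, in hypothyroid WT, hypothyroid L-NCOR1ΔID and T3-treated WT, with 1 point per library, a bar at each mean and values under 0.02 drawn at 0.02. All mutant points lie below all hypothyroid WT points, while the T3-treated points lie near the mutant points for Pcp4l1, Ankrd55, Meg3 and Rian and near the hypothyroid WT points for Gdpd3 and 2610507I01Rik.

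Called genes were unevenly placed along the genome. Of 13258 tested genes with a position in the mm9 annotation, 163 were called (1.23%), against 21 of 720 on chromosome 8 (2.92%), 10 of 491 on chromosome 19 (2.04%), 14 of 753 on chromosome 1 (1.86%) and 2 of 838 on chromosome 4 (0.239%). On distal chromosome 1, between 133.5 and 184.7 Mb, 10 of 281 tested genes were called (3.56%), and all 10 were lower in the mutants, Ctse, Ren1, Pcp4l1, Nr1i3, Tomm40l, Ifi202b and Susd4 among them. On chromosome 12, between 105.0 and 110.8 Mb, 7 of 47 were called (14.9%), which were Serpina1d, Serpina3b, Serpina3f, Serpina3h, Meg3, Mir1906-1 and Rian. On chromosome 8, between 71.6 and 87.6 Mb, 14 of 181 were called (7.73%), 9 higher and 5 lower, with Bst2 among the higher. On chromosome 11, between 49.5 and 60.6 Mb, 8 of 130 were called (6.15%), 6 higher and 2 lower, with Shmt1 and 2610507I01Rik among them, and that stretch ends 1.5 Mb before Ncor1. The bounds of these stretches were drawn after the calls were known, so their shares are descriptions.

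Genes that differ between mouse strains bear on these positions. Ifi202b, an interferon-inducible gene that some strains do not express, was at 0.357, 0.323, 0.421 and 0.525 RPKM in hypothyroid WT. It is listed at 0 in all 4 mutant libraries (limma adjusted p = 0.000422) and entered the test only through its WT values. That p-value is therefore no separate support for the difference. The T3-treated WT libraries ran from 0.022 to 0.470 RPKM for Ifi202b. Nnt, which is broken in C57BL/6J, was at 36.1 to 45.8 RPKM in WT and at 31.3 to 38.7 RPKM in the mutants (adjusted p = 0.411). Since the strain background of the WT RNA libraries is not given, genotype and background cannot be told apart, and the part of strain origin in the calls on chromosomes 1, 8, 11 and 12 was not tested.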

How the data were processed

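Poly(A) RNA of 12 mouse livers was sequenced, and each library has runs from 2 instrument models per the labels. The authors aligned reads to mm9 with STAR and deposited RPKM values per transcript, made with HOMER, with 1 column per library. No tool versions are given in the sources used here. The deposited RPKM table held 31370 transcripts of 23813 named genes, and the first row of each gene was used. One row that names no gene (0.000785% or less of a library) was dropped. The values give depth only relative to other libraries.

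A gene was tested if 4 or more of the 8 libraries reached 0.1 RPKM. Some genes could thus enter through the libraries of a single group. The test was limma 3.58.1 (R 4.3.3), with trended variance, on the log2 of RPKM plus 0.1, and the Benjamini-Hochberg method adjusted p over all 13790 genes. Simulated data with 200 altered genes served as a check of the script. Positions came from the GENCODE M1 annotation of mm9, and sequences from RefSeq on GRCm38.p6.

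Named genes were Ncor1, genes the study names, the 12 largest changes in each direction among called genes with at least 1 RPKM in the higher mean and separate groups, every called member of a gene list, the first 4 members of each list, and others marked as chosen after their values were seen. Some genes that this rule names are not reported here. The genes and lists were chosen with earlier results of these data known. Alternatives changed the pseudocount, filter, transcript, scaling, variance trend, libraries, threshold and block. The deposited list of acetylated regions holds positions without values per sample and was not used.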

Additional observations from a re-analysis of the deposited data

Results flagged for a closer look

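Among the genes named in the report, 252 groups of 4 libraries were searched for a library whose gap to its nearest neighbour, as a share of the range of the group, exceeded the critical value of Dixon's test, which chance passes in about 1 group in 20. In 16 groups a library stood apart, 5 times WT replicate 3 and 5 times mutant replicate 2. WT replicate 3 held Dio1 at 57.7 RPKM, against 0.719 to 8.98 RPKM in the other WT libraries. It also held Fgf21 at 20.6 RPKM (others 1.83 to 4.07), Papss2 at 49.0 RPKM (36.4 to 37.7), G6pdx at 1.6 RPKM (1.34 to 1.38) and Marco at 0.950 RPKM (0.232 to 0.320). Mutant replicate 2 held Marco at 29.1 RPKM (others 0.647 to 4.62), Slco1a4 at 53.5 RPKM (38.3 to 40.0), Papss2 at 112 RPKM (92.6 to 94.3), Esr1 at 5.71 RPKM (2.61 to 3.10) and Ghr at 123 RPKM (160 to 165 in the others). The lowest value of a group stood apart for Acacb in WT replicate 1, at 6.78 RPKM against 10.7 to 11.1 RPKM. Gm4956 reached 3.12 RPKM in WT replicate 2 (others 1.89 to 2.09). Among genes with deep falls, a single mutant library kept more RNA than the rest, with Ctse at 0.128 RPKM in mutant replicate 1 (others 0.011 to 0.024), Serpina3f at 0.762 RPKM in mutant replicate 3 (0.326 to 0.400), and Obp2a at 0.146 RPKM (0.033 to 0.037) and A330049N07Rik at 0.505 RPKM (others listed at 0) in mutant replicate 4.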

How the results depend on the processing

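With an adjusted p under 0.01, the 100 genes higher and 75 lower became 93 and 74 with a pseudocount of 1, 99 and 69 with 0.01, 71 and 52 with no filter on low values, 82 and 57 with a mean of at least 1 RPKM, 98 and 83 after scaling by the median of gene ratios, 99 and 76 with the most abundant transcript, 63 and 57 with no variance trend, 139 and 118 with all 12 libraries in the fit, and 344 and 257 with an adjusted p under 0.05. Leaving out 1 library gave 36 to 110 higher and 28 to 77 lower, and at the wider rule 144 to 521 and 123 to 361. The share of calls that were higher was 57.1%, and it was 45.4% without mutant replicate 1.

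Of the 66 called genes the report names, 33 kept their call in all 8 fits without 1 library and 30 in at most 4, where a fit whose filter removed the gene counts as not kept. Each of Igfals, Susd4, Serpina1d and Lncbate1 kept it in 0, each of Acacb, Cyp2c55, Glt1d1, Sult1d1, Rpl30, Serpina3h and A330049N07Rik in 1, and each of Gpx6, G6pdx, Hmox2, Oas1a, Saa4, Gldc, Cyp4v3 and Arntl in 2. None of the 66 changed sign under the 17 alternatives. Of the 61 named genes that were not called, 9 gained a call under an alternative. They were Saa1, Saa2, Lyve1 and Cyp3a13 without mutant replicate 4 (adjusted p from 0.00329 to 0.00719), Acss2, Lbp and Pnpla3 without mutant replicate 2 (0.00174 to 0.00629), Cd3e without WT replicate 2 (0.00546) and Fgf21 without WT replicate 3 (0.00347). Fgf21 also gained it with a pseudocount of 0.01 and Pnpla3 with all 12 libraries in the fit. Of the genes that changed sign, the log2 fold change of Thrb went to -0.024 without WT replicate 1 and to -0.089 without mutant replicate 4 (up to 0.147 without mutant replicate 2), that of Thra to -0.068 without WT replicate 2 and to -0.011 without mutant replicate 1 (up to 0.097 without WT replicate 1), and that of Cyp2c29 to -0.003 without mutant replicate 1 and to -0.062 without mutant replicate 4 (up to 0.203 without mutant replicate 2). That of Ginm1 went to -0.015 after median scaling and ranged from -0.122 without WT replicate 4 to 0.134 without mutant replicate 2, that of Ncoa1 ranged from -0.16 without mutant replicate 4 to 0.031 without mutant replicate 2, and that of Cbs from -0.118 without mutant replicate 4 to 0.126 without mutant replicate 1. The cause of these changes was not tested.

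Both groups carry replicate numbers 1 to 4, but the libraries share only a number. Deviations from the group means correlated at 0.34, -0.22, 0.09 and -0.20 between libraries of the same number, and 1 of 4 WT libraries correlated best with its own number. With the replicate block, 20 genes were higher and 25 lower (155 and 118 at the wider rule), 44.4% of the calls were higher, and 26 of the 66 named calls passed. The files give no read totals, so the reads behind low levels are not known.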
